A study of Arabidopsis thaliana with 11 samples.

Results

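The 31189 transposable element features of the experiment 1 count tables were examined in the endosperm of Arabidopsis thaliana, the seed tissue that feeds the embryo. The members are all rows named AT, a chromosome digit from 1 to 5, TE and a number, and they make up 31189 of 63867 rows. The other 32678 rows are genes, and the 6 tables of experiment 2 hold 0 element rows, so every value here comes from 5 libraries. Wild-type endosperm (2 libraries) came from a Ler mother and a Col father. Homozygous nrpd1 endosperm (3 libraries) came from a Ler mother and a Col father that both carried the nrpd1a-4 allele, and is also called the mutant here. All libraries came from polyA RNA of hand-dissected endosperm 6 days after pollination. Each used seeds from crosses of several plants, in which mother and strain always go together. How many plants entered each library is not given in the sources used here.

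Transposable elements are stretches of DNA that can copy or move themselves, and plants keep most of them silent with DNA methylation and repressive histone marks. NRPD1 is the catalytic core subunit of RNA polymerase IV, the plant enzyme that transcribes elements into precursors of small RNAs. These small RNAs guide DNA methylation back to the same sequences, a process called RNA-directed DNA methylation. In endosperm the maternal genome is partly demethylated by the demethylase DME, and small RNAs from elements accumulate there. The comparison asked which elements gain or lose transcripts, and from which parent's allele, when both parents carry the nrpd1 mutation.

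The libraries held 15926510 to 20817788 counts in all. NRPD1 itself had 851 and 761 counts in wild type against 451, 328 and 646 in the mutant (log2 -0.72, SE 0.16, edgeR adjusted p = 0.238), and these counts do not separate transcripts of the mutant allele. Homozygous replicate 2 stood apart most in 2 of 10 heat response genes. It held 953 counts of HSP17.4 and 861 of HSP17.6A, against 59 to 84 and 2 to 3 counts in the other 4 libraries. Of the other 8, HSFA2, HSP101 and HSA32 were also highest in that library. In CPM (counts per 1000000 of all features in the library) they had 2.45, 81.4 and 19.4 there. The other libraries held 0.417 to 1.63, 52.3 to 60.3 and 12.3 to 16.9 CPM. HSP21, HSP22 and HSP23.6 were highest there in CPM too, but at 1 to 7 counts. HSP17.6II was lowest in that library at 5 counts, and HSP70 was higher in homozygous replicate 1. Of 8 endosperm markers 0 were at 0 in all libraries, but IKU2 and MINI3 each held 1 count in 1 library. PHE1 held 0 to 13 counts and MEA 4 to 19. The 8 summed to 614 to 708 CPM in wild type against 432 to 634 CPM in the mutant. Most of that sum was SUC5, at 374 to 641 CPM over the libraries. The 8 embryo markers summed to 252 to 280 CPM and 237 to 287 CPM, with DRNL and CUC2 at 0 in every library. Most of that sum was ABI3, at 229 to 272 CPM. WOX2 held 89 counts in homozygous replicate 2 against 6 to 9 in the other 4 libraries. The 13 seed coat markers summed to 1051 to 1094 CPM and 1019 to 1531 CPM, and 9 of the 12 tested had a positive log2 change (median 0.30), with 0 called. BAN lay above wild type in every mutant library, at 22.3 and 13.2 CPM against 219, 157 and 89.7 CPM (log2 3.17, edgeR adjusted p = 0.101). It also lies among the listed genes described with the maternal shares. TTG2, another listed gene, and TT10, which is not listed, lay above wild type in every mutant library too. TT10 had 274 and 327 CPM against 436, 347 and 348 CPM (edgeR adjusted p = 0.408). AHA10 lay below wild type in every mutant library. The part of seed coat transcripts in the element values and maternal shares was not tested. In these bulk samples, fewer cells of a type and less RNA per cell cannot be told apart.

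Element counts were a very small part of every library, and their sum was somewhat larger in the mutant. Summed over all 31189 elements, wild-type replicates 1 and 2 held 7235 and 7680 counts, and homozygous replicates 1, 2 and 3 held 7411, 7712 and 10327. Scaled to library totals this was 414 and 400.4 CPM in wild type against 443, 484 and 496 CPM in the mutant. Every homozygous library therefore lay above both wild-type libraries, although the whole class took less than 0.05% of the counts in each. The means were 407 ± 9.64 CPM (SD, n = 2) and 474 ± 28.0 CPM (n = 3), a difference of 67.1 CPM or 16.5% of the wild-type mean. The two-sided exact permutation p was 0.2, the smallest that 2 against 3 libraries allow. These sums compare shares of a library, so they do not give the number of transcripts per cell.

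The mean sum was higher in the mutant in every class of abundance, but the difference rested in part on the most abundant elements. Elements were classed by their counts summed over all 5 libraries, of which 3 are homozygous. An element high in the mutant alone can thus enter a higher class, so the classes are not independent of the comparison. The 351 elements with 10 to 99 counts summed to 109 and 101 CPM in wild type against 120.2, 119.7 and 136 CPM in the mutant, with no overlap. The 1456 elements with 1 to 9 counts summed to 36.5 and 30.3 CPM against 41.5, 36.3 and 46.4 CPM, and here homozygous replicate 2 fell below wild-type replicate 1. The 70 elements with at least 100 counts summed to 268 and 269 CPM against 281, 328 and 314 CPM. Without AT1TE83905, an element with counts in homozygous replicate 2 alone, that library came to 268 CPM in this class and to 424 CPM over all elements. The groups then overlapped in this class (two-sided exact permutation p = 0.4), so that only the class with 10 to 99 counts still separated them. The difference of all elements was then 47.1 CPM, still with no overlap (two-sided exact permutation p = 0.2). Without the 10 elements with most counts it was 37.2 CPM, and the groups overlapped (two-sided exact permutation p = 0.4), with 284 and 262 CPM in wild type against 313, 279 and 338 CPM in the mutant.

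**Figure D1:**
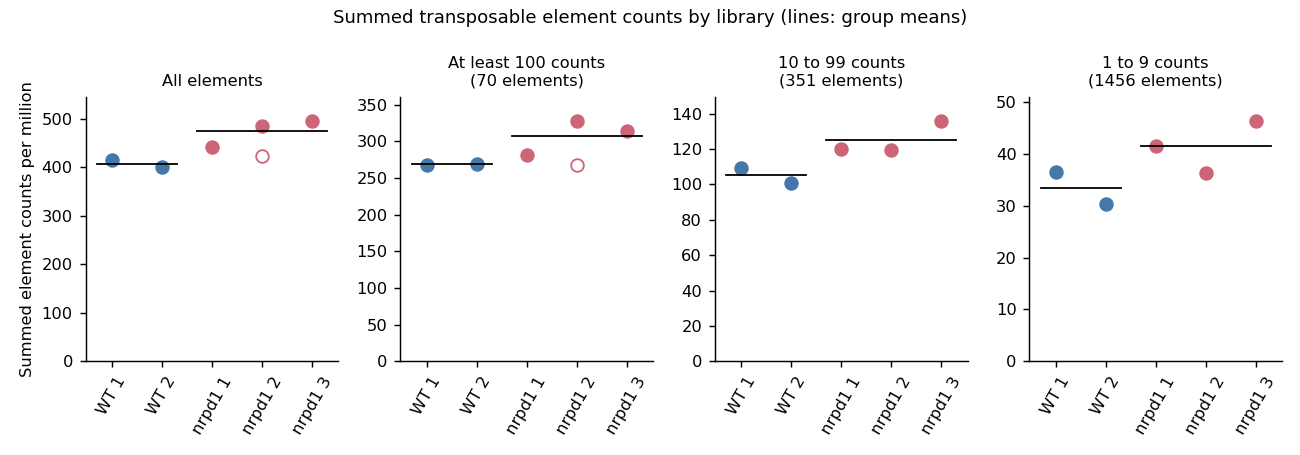
Summed element CPM (vertical axes, starting at 0) in each library (WT, wild type; nrpd1, homozygous nrpd1), for all elements and for 3 classes of abundance. Points are libraries, black lines are group means, and open circles show homozygous replicate 2 without AT1TE83905, where the sum goes from 484 to 424 CPM over all elements.

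Most elements gave no read at all. Over the 5 libraries 29312 elements (94.0%) had no count, 1877 (6.02%) had at least 1 and 356 (1.14%) had at least 1 in every library. Of the 1877, 761 had exactly 1 count in all. Counting elements with at least 1 count, wild type had 873 and 834 and homozygous nrpd1 had 932, 828 and 1050. The groups overlapped, since homozygous replicate 2 had the fewest, and the difference of 83.2 elements gave p = 0.6 in the two-sided exact permutation test. At an equal depth of 15926510 counts the expected numbers were 834 and 766 against 910, 828 and 934, again with overlap (difference 90.8, two-sided exact permutation p = 0.4). With at least 2 counts required, they were 446 and 452 against 496, 453 and 597, with no overlap but only 1 element between the nearest libraries (two-sided exact permutation p = 0.2). For comparison, 65.5% to 67.2% of gene rows had at least 1 count.

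The expressed elements were few and unequal. Of 40365 element counts, the most abundant element alone gave 7.42%, the first 10 gave 33.8% and the first 100 gave 71.4%. AT1TE55920 was the most abundant, with 531 and 666 counts in wild type against 494, 538 and 766 in the mutant. Its level was 32.6 ± 3.07 CPM and 33.4 ± 3.66 CPM (log2 difference 0.07, SE 0.14, edgeR adjusted p = 0.844), and the groups overlapped. AT5TE72580 followed with 273 and 370 counts against 319, 442 and 500, or 15.6 and 19.3 CPM against 19.1, 27.8 and 24.0 CPM, with overlap (edgeR adjusted p = 0.459). AT1TE46325 and AT1TE46330, whose identifiers are 5 apart, held 220 to 348 and 197 to 252 counts per library with overlapping groups. AT2TE33390 ranged from 168 to 370 counts, AT3TE66935 from 191 to 320 and AT5TE72140 from 174 to 424, with overlap in each. AT3TE70520 had 205 and 206 counts against 138, 88 and 169, and AT3TE40935 had 177 and 154 against 126, 110 and 158. Both lay lower in CPM in every homozygous library, without passing the test (edgeR adjusted p = 0.358 and 0.532). Of these 9 elements 0 passed the test in total expression. The tenth, AT1TE83905, was seen in 1 library.

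AT1TE83905 had 956 counts in homozygous replicate 2 and 0 in each of the other 4 libraries. It ranked eighth by mean level through that library alone, and none of its counts was assigned to an allele. Only 1 other element, AT5TE49345 with 11 counts, had at least 10 counts in 1 library and 0 in the rest, and it was also in homozygous replicate 2. AT2TE09380 had 74 counts in the same library beside 0 counts in both wild-type libraries, 1 in homozygous replicate 1 and 2 in homozygous replicate 3. This is the library in which HSP17.4 and HSP17.6A were high, and the part of that difference in these counts was not tested. None of these 3 elements entered the edgeR test, because each was high in a single library.

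Single elements were tested in edgeR together with all genes, on the 18570 features that passed the filter on low counts. Of the 31189 elements 150 (0.481%) passed, and they carried 75.8% of all element counts. Of the 150, 1 rose and 1 fell at an adjusted p under 0.05, against 0.232% higher and 0.102% lower of all features (0.334% in either direction). The 150 split into 85 positive and 65 negative log2 changes with a median of 0.08, where all features had 50.5% positive and a median of 0.00. Every homozygous library lay above both wild-type libraries in 40 of the 150, and below in 19. Over all features these shares were 13.2% and 19.7%. At an unadjusted p under 0.05 there were 28 elements higher and 6 lower, where all features had 6.47% higher and 5.25% lower (11.7% in either direction). The filter bears on these counts. It was met by 31 of the 150 with at most 1 wild-type library and at least 2 homozygous ones at the minimum level, so they needed the mutant to pass. Among these 31, 19 reached the minimum in no wild-type library, so they passed through the mutant alone. Another 5 of the 150 reached it in no homozygous library. The split is therefore a description of the tested elements and supports no statement on elements in general.

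**Figure D2:**
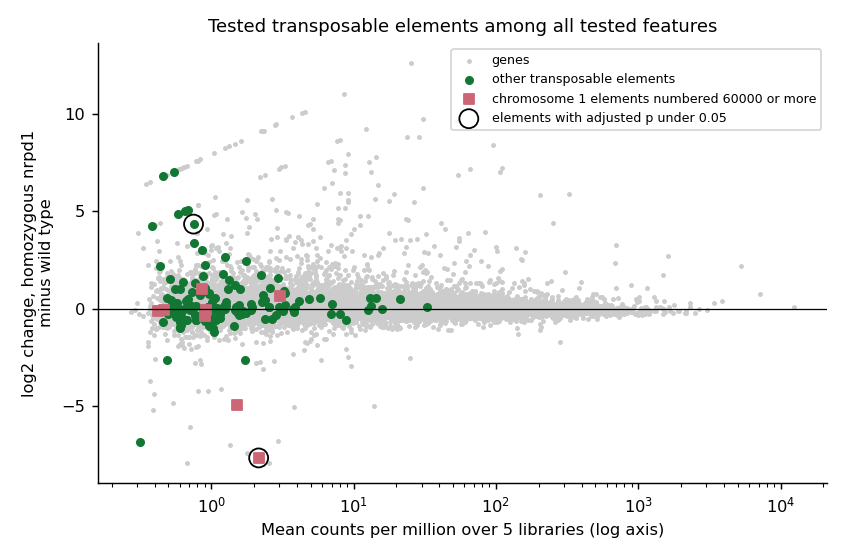
Log2 change in the mutant against wild type (vertical axis) over mean CPM (log axis) for all 18570 tested features, with genes in grey and the 150 tested elements in colour. Red squares are chromosome 1 elements with identifier numbers of 60000 or more, and black rings mark AT3TE47360 (log2 4.35) and AT1TE84330 (log2 -7.67), the elements with an adjusted p under 0.05.

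AT3TE47360 rose from 1 count in each wild-type library to 18, 21 and 26 counts in the mutant. All 3 homozygous libraries were high and close to each other, and the groups did not overlap. Its level went from 0.0547 ± 0.00360 CPM (SD, n = 2) to 1.21 ± 0.125 CPM (n = 3), a log2 change of 4.35 (SE 0.50, edgeR adjusted p = 0.0487). It reached the minimum level of the filter in 0 of 2 wild-type libraries, so it entered the test only through the mutant. Because wild type held 2 counts in all, the ratio of 22.3 has a wide counting interval of 5.92 to 188. No read of it was assigned to either allele, so the parent of these transcripts cannot be given. AT1TE84330 fell from 135 and 57 counts in wild type to 1, 0 and 0 in the mutant, and entered the test only through wild type. Its level went from 5.35 ± 3.36 CPM to 0.0199 ± 0.0345 CPM (log2 -7.67, SE 0.85, edgeR adjusted p = 0.0457), a ratio of wild type to homozygous of 280 with a counting interval of 49.7 to 11123. With any 1 of the 5 libraries left out, neither passed: the adjusted p was 0.0893 to 0.471 for AT1TE84330 and 0.0893 to 0.649 for AT3TE47360. With the replicate number as a block, AT3TE47360 did not pass (edgeR adjusted p = 0.0649), AT1TE84330 did (0.0190), and AT1TE70815 was added (0.0342).

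The 8 tested elements that followed by unadjusted p did not pass in edgeR. They were chosen for that p, so their separated groups are a description, and apart from AT3TE64215 each reached the filter's minimum level in 1 genotype alone. AT2TE07550 had 5 and 6 counts in wild type against 35, 26 and 39 in the mutant (log2 2.64, SE 0.33, edgeR adjusted p = 0.0646). AT3TE64215 had 6 and 12 against 47, 32 and 62 (log2 2.43, SE 0.38, adjusted p = 0.123). These had the most counts of the 8 higher elements among the 10 with the smallest p. AT4TE45190 had 3 and 1 counts against 24, 15 and 24, and AT4TE22970 had 0 and 1 against 22, 11 and 29. AT3TE57645 had 0 and 1 counts against 12, 17 and 30, and AT1TE04710 had 0 and 1 against 16, 9 and 28. All 3 mutant libraries were high in each of these elements. AT1TE58825 had 0 and 0 counts against 16, 8 and 17, which makes it at least 9.37-fold higher when 3 counts are allowed over the wild-type group. The remaining element, AT1TE70815, went the other way, with 63 and 70 counts in wild type against 1, 0 and 5 in the mutant. DESeq2 on the same features called 13 of the 150 elements, 9 higher and 4 lower. Among all features it called 1.97% higher and 0.814% lower (2.78% in either direction). The limit set by the filter holds for these calls too. Of the 10 elements with the smallest edgeR p, 9 were among the 13, AT1TE04710 being the exception. Both tests used the same counts, so this overlap is no independent support.

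**Figure D3:**
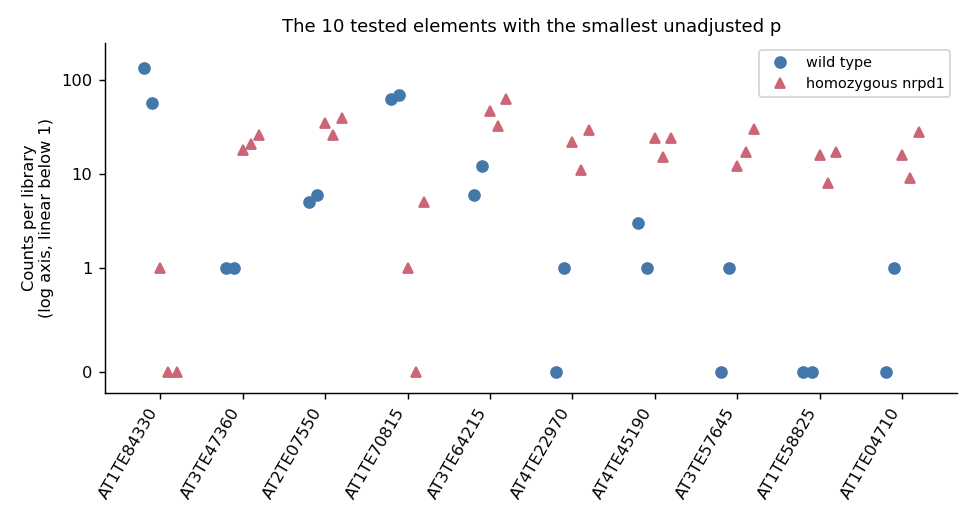
Counts per library (vertical axis, logarithmic above 1 and linear below) of the 10 tested elements with the smallest unadjusted p, in order of p, with wild-type libraries as blue circles and homozygous nrpd1 libraries as red triangles. In 8 of the 10 every homozygous library lies above wild type, and AT1TE84330 and AT1TE70815 lie the other way.

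Elements seen in 1 genotype alone were mostly at the limit of detection. There were 35 elements with counts in every homozygous library and in neither wild-type library, and also 35 with counts in both wild-type libraries and in no homozygous one. These numbers ask for 3 libraries on one side and 2 on the other, so they cannot be set against each other. Each is 0.112% of the elements. The same patterns were not counted over all features, so whether 35 is many for such low counts is not known. The elements named next were chosen for their many counts in the other genotype, so their folds are a description. Among those at 0 in wild type, AT3TE50970 had 15, 23 and 8 counts, at least 10.5-fold higher, without passing (edgeR adjusted p = 0.261). It entered the test only through the mutant. AT2TE18240 had 7, 6 and 9 counts, at least 5.03-fold higher, and AT5TE29520 had 3, 11 and 5, at least 4.34-fold higher. Neither was tested, as their counts were too low. Among those at 0 in the mutant, AT5TE46865 had 14 and 15 counts in wild type, at least 14.1-fold lower in the mutant (edgeR adjusted p = 0.175). This element entered the test only through wild type. AT5TE67210 followed with 5 and 3 counts, AT1TE91360 with 2 and 2, and AT1TE35540 and AT2TE20890 with 2 and 1 each. For elements with 1 to 3 counts per library, a difference between the genotypes was not detectable at this depth.

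By chromosome, the summed level was higher in every homozygous library on chromosomes 2, 3 and 5 and overlapped on chromosomes 1 and 4. Chromosome 3 held 69.0 and 65.4 CPM in wild type against 78.8, 70.7 and 91.1 CPM in the mutant. Chromosome 5 held 92.4 and 92.9 CPM against 104, 111 and 123 CPM, and chromosome 2 held 69.7 and 68.6 CPM against 75.1, 88.5 and 90.1 CPM. Each of these 3 differences gave p = 0.2 in the two-sided exact permutation test. On chromosome 4 the values were 39.7 and 39.8 CPM against 43.4, 35.7 and 47.7 CPM. On chromosome 1 homozygous replicate 2 was high at 178 CPM, of which AT1TE83905 gave 60.03 CPM, and the other 4 libraries held 134 to 144 CPM.

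Of the genes that act in element silencing, 1 of 33 changed in total expression, lower in the mutant, where 0.102% of all features were called lower. The list covers RNA polymerases IV and V, their small RNA and Argonaute partners, DNA methyltransferases, histone methyltransferases, remodellers and the demethylases DME and ROS1. All 33 were tested, and 29 had a negative and 4 a positive log2 change (median -0.18), where all features had 49.5% negative and a median of 0.00. ROS1, which removes DNA methylation, was the 1 that passed; like NRPD1 it belongs to a list of chromosome 1 and 2 genes described with the maternal shares. Its level was 434 and 537 CPM in wild type against 169, 142 and 121 CPM in the mutant (log2 -1.72, edgeR adjusted p = 0.0325). DDM1, a remodeller that keeps elements methylated, had 22.9 and 24.5 CPM against 20.8, 13.4 and 22.0 CPM (edgeR adjusted p = 0.552). MET1, the methyltransferase that maintains CG methylation, had 57.5 and 55.0 CPM against 54.5, 35.5 and 49.3 CPM (adjusted p = 0.551). In both genes homozygous replicate 2 was the lowest library.

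Allele-assigned counts of elements were few, and their pooled share of Ler lay near the genome dosage, while single elements ranged from 0% to 100%. Endosperm has 2 maternal genomes and 1 paternal, so equal expression per copy gives a maternal share of 66.7%. The maternal share is the percentage of Ler counts among Ler and Col counts. Over all elements, 1643 and 1612 counts were assigned to an allele in wild type against 1411, 1299 and 2099 in the mutant. These made up 22.7% and 21.0% of element counts in wild type against 19.0%, 16.8% and 20.3% in the mutant, with no overlap (two-sided exact permutation p = 0.2). Over all features 17.8% to 18.4% of counts were assigned. In every share given here, an effect of the parent and one of the strain cannot be told apart.

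The pooled maternal share of elements did not separate the genotypes. It was 69.4% (Wilson interval 67.2 to 71.6) and 70.3% (68.1 to 72.5) in wild type. In homozygous replicates 1, 2 and 3 it was 62.2% (59.7 to 64.7), 71.2% (68.7 to 73.6) and 63.8% (61.7 to 65.8). Replicates 1 and 3 lay below both wild-type libraries and replicate 2 above them. The means were 69.9% ± 0.637 (SD, n = 2) and 65.7% ± 4.80 (n = 3), which differ by -4.15 points (two-sided exact permutation test, p = 0.6). This negative sign rested on part of chromosome 1, and on the other elements it turned to 0.39 points, as the next comparison shows.

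On chromosome 1 the maternal share of elements was 81.4% and 83.1% in wild type against 63.3%, 72.4% and 65.8% in the mutant, with no overlap (two-sided exact permutation p = 0.2). In the identifier scheme of the annotation the element numbers run in order along a chromosome, and the files give no position. Among the 2229 chromosome 1 elements with numbers of 60000 or more, a limit chosen after the values were seen, the share was 85.2% (156 of 183 allele counts) and 80.3% (118 of 147) in wild type. In homozygous nrpd1 it was 0% (0 of 73, where a count of 0 allows a share of up to 4.11%), 3.28% (2 of 61) and 6.98% (6 of 86). Ler counts were thus at most 6.98% of the allele counts of these elements in any homozygous library. The stretch was not uniform. For numbers from 90000 to below 100000, Ler gave 9 of 18 and 2 of 10 allele counts in wild type. There it gave 0 of 5, 2 of 10 and 4 of 13 in homozygous replicates 1, 2 and 3, so the groups overlapped. Whether a Ler count still marks the maternal allele in this stretch, and a Col count the paternal one, was not tested. A gene list deposited with the series, named for a Col holdout and nrpd1, holds 3526 chromosome 1 genes from AT1G48350 to AT1G80990 and 1555 chromosome 2 genes from AT2G34430 to AT2G48160. Its chromosome 1 genes had maternal shares of 65.3% and 55.4% in wild type against 0.114%, 9.72% and 3.74% in the mutant. The listed genes of chromosome 2 had 53.5% and 54.5% against 37.5%, 42.8% and 5.54%. The 133 chromosome 2 elements numbered 80000 or more showed 6 Ler counts of 10 and 6 of 12 in wild type, and 4 of 10, 6 of 14 and 0 of 28 in homozygous replicates 1, 2 and 3. In the stretch of chromosome 1 the Col counts of elements were 27 and 29 in wild type against 73, 59 and 80 in the mutant, with no overlap. The Col counts of the listed chromosome 1 genes were 135072 and 191635 against 428882, 363231 and 508023, while their Ler and Col counts together were 388889 and 430131 against 429370, 402359 and 527749. Fewer Ler counts thus went with more Col counts in every homozygous library. The origin of these Col counts was not tested.

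**Figure D4:**
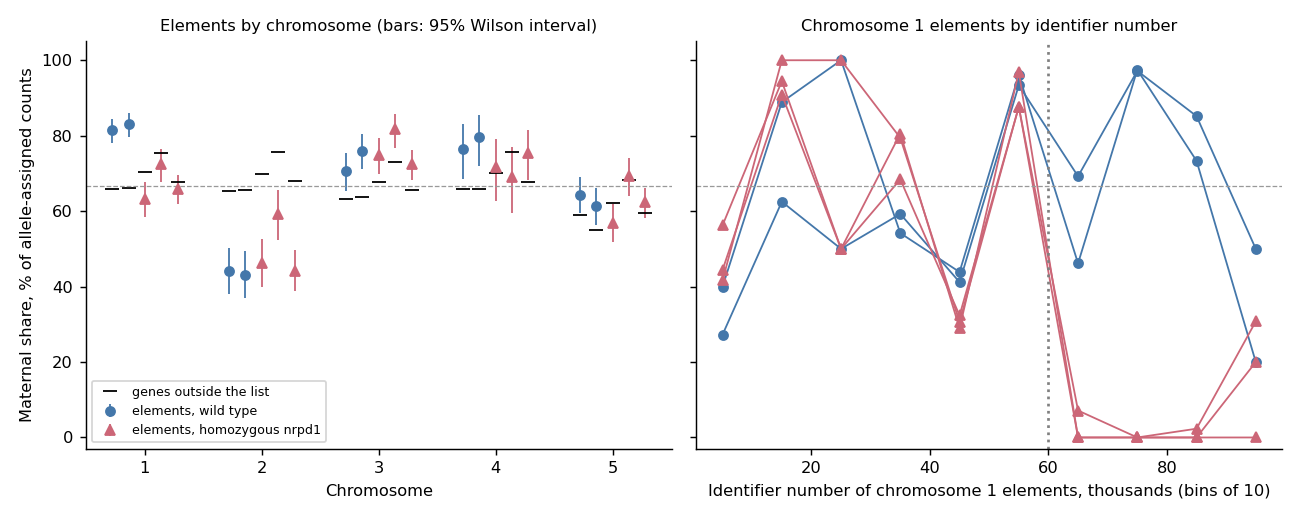
Maternal share in percent (vertical axis) of element allele counts by chromosome (left, bars are 95% Wilson intervals, black dashes the pooled share of genes outside the list) and by identifier number along chromosome 1 (right, in bins of 10000). Blue circles are wild-type libraries, red triangles homozygous nrpd1 libraries, the dashed line is 66.7% and the dotted line marks number 60000. Above that number the pooled share in each homozygous library is at most 6.98%, though homozygous replicate 3 reaches 30.8% in the last bin.

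The 2 lower elements among the 10 with the smallest p lay in this stretch, and their allele counts in wild type were all Ler. For AT1TE84330 only 75 of 192 wild-type counts were assigned to an allele. AT1TE84330 had 53 and 22 Ler counts and 0 Col counts in wild type, and 0 Ler counts and 1 Col count in the mutant. AT1TE70815 had 66 and 72 Ler counts and 0 Col counts in wild type, against 0 Ler counts and 1, 0 and 5 Col counts in the mutant. Its Ler counts slightly exceed its totals of 63 and 70, as allele counts did for 80 elements in at least 1 library, by at most 5 counts. AT1TE70815 was the 1 of 12 tested elements whose share of Ler counts changed (edgeR adjusted p = 0.0349, lower). It met the count minimum through wild type, which held 138 of its 144 allele counts. Whether a Ler count marks the maternal allele here was not tested, so the call cannot give a change in parental expression. Over all features tested, which leave out the listed genes but keep the elements of this stretch, 0.107% changed, 0.0594% upward and 0.0475% downward. An element of the stretch is thus set beside a share that lacks the listed genes, which also lost Ler counts. The call was lost without homozygous replicate 2 (edgeR adjusted p = 0.151) or 3 (0.254), and without either wild-type library the element fell under the count minimum. It rests on 6 allele counts in the mutant. AT1TE84620, in the same stretch, held a total of 20 and 15 counts in wild type against 18, 15 and 14 in the mutant, and its Col counts were 4 and 6 against 16, 13 and 11. Its maternal share went from 65.5% of 29 pooled allele counts to 0% of 40. Without AT1TE83905 the stretch summed to 25.1 and 18.7 CPM in wild type against 16.3, 12.1 and 16.6 CPM in the mutant, with no overlap (two-sided exact permutation p = 0.2). Outside the stretch elements summed to 389 and 382 CPM against 426, 412 and 479 CPM, also with no overlap (p = 0.2 in the same exact test).

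Outside this stretch, elements whose allele counts in wild type were almost all of 1 allele leaned to the same allele in the mutant. Of the 33 elements with at least 20 allele counts in wild type, 9 had a maternal share of at least 95%, 5 of at most 5% and 19 lay between. Among 9392 genes outside the list with as many allele counts, 3.92% and 0.745% had such extreme shares and the median was 67.2%, close to the 68.2% of the elements. Depth was not matched between the classes. Among elements outside the stretch with at least 10 allele counts in the mutant, 5 of 5 with a Col pattern were at 0% maternal there, after 0% to 2.13% in wild type. The 7 with a Ler pattern had 84.0% to 100% in the mutant, and the 18 between had up to 98.7%, with 0 of 18 at 5% or less.

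AT1TE55920 shows the Ler pattern most plainly, with 209 and 245 Ler counts and 0 Col counts in wild type. In homozygous nrpd1 it had 151, 196 and 245 Ler counts and a single Col count, in replicate 1. AT5TE48725 had 31 and 27 Ler counts in wild type against 25, 39 and 57 in the mutant, with 0 Col counts in all 5 libraries. AT2TE42300 was the reverse, with 27 and 37 Col counts against 28, 16 and 34 and 0 Ler counts in all 5. The allele counts of each of these 3 elements were thus of 1 allele in both genotypes, apart from that single count. For AT1TE55920 they were 454 of 1197 counts in wild type and 593 of 1798 in the mutant. The allele of the unassigned counts is not known.

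None of the tested elements read from both alleles passed the test of maternal share, and the groups overlapped in those named next. AT5TE72140 had maternal shares of 64.7% and 68.6% in wild type against 55.8%, 71.0% and 60.1% in the mutant (edgeR adjusted p = 0.725). AT3TE66935 had 79.6% and 88.6% against 86.8%, 88.1% and 74.0% (adjusted p = 0.844), and AT3TE70520 went from a pooled 69.2% to 63.0% (adjusted p = 0.832). AT1TE58610, AT1TE37795 and AT3TE66875 had pooled shares of 70.8%, 76.5% and 94.3% in wild type against 56.7%, 85.2% and 98.7% in the mutant, with adjusted p-values of 0.633 to 0.673. Among elements higher in the mutant, AT3TE57645 had 8, 12 and 21 Ler counts and 0 Col counts in the homozygous libraries. AT2TE18240 had 3, 2 and 6 Ler counts and 0 Col counts there. AT3TE64215 was read from both alleles, with 4, 7 and 7 Ler counts and 5, 0 and 5 Col counts.

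**Figure D5:**
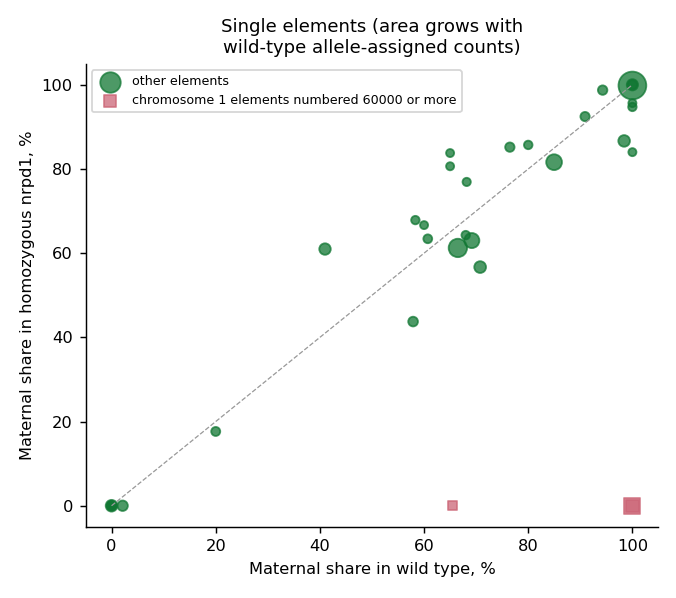
Pooled maternal share in wild type (horizontal axis, percent) and in the mutant (vertical axis, percent) of the elements with at least 20 wild-type allele counts, where area grows with those counts and the dashed line marks equal shares. The 3 red squares, chromosome 1 elements numbered 60000 or more, lie at 0% in the mutant, and the green points, all other elements, spread around the line.

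The maternal share of elements minus that of genes was higher in both wild-type libraries than in any homozygous one. The pooled share of genes outside the list was 63.1% and 62.1% in wild type against 67.1%, 72.7% and 64.8% in the mutant. Elements minus genes gave 6.34 and 8.24 points in wild type and -4.90, -1.54 and -0.991 points in the mutant, without overlap. The group means thus differed by -9.77 points (two-sided exact permutation test, p = 0.2, the smallest possible). Without the chromosome 1 elements numbered 60000 or more, elements minus genes gave 4.36 and 7.24 points against -1.51, 1.81 and 1.44 points, so that 2 of the 3 homozygous libraries turned to above genes and the difference was -5.22 points. On chromosomes 3, 4 and 5 alone, which the list does not touch, elements minus genes gave 6.60 and 9.57 points against 0.442, 2.60 and 4.71 points, a difference of -5.50 points (p = 0.2 in the same exact test). On those chromosomes the share of elements had group means of 69.3% and 69.5% in wild type and mutant, and that of genes 61.2% and 66.9%. Between the genotypes the genes thus differed by 5.69 points and the elements by 0.18 points there. The elements of chromosome 4 had 76.6% and 79.6% against 71.7%, 68.9% and 75.5%, and those of chromosome 3 had 70.6% and 76.1% against 74.8%, 81.8% and 72.5%. With 103 to 163 allele counts per library on chromosome 4, the counting error of each value there spans several points. The elements of chromosome 5 had 64.4% and 61.2% against 56.9%, 69.3% and 62.3%. On chromosome 2 elements lay below the genome dosage in every library, with 44.0% and 43.2% in wild type against 46.2%, 59.1% and 44.2% in the mutant. Genes outside the list on that chromosome had 65.2% to 75.6%.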

How the data were processed

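The deposited tables hold raw counts per feature, as all reads and as reads assigned to Col or Ler. TopHat, HTSeq, Trim Galore, cutadapt and FastQC were used with the build TAIR10, per the submitters' processing notes. Versions, the strand setting, the treatment of reads that match several copies, and the allele assignment are not given in the sources used here, so a count of an element that overlaps a gene or has close copies is uncertain. One deposited file lists gene identifiers without a measurement (type other). Libraries of experiment 1 were made with a stranded TruSeq kit with 15 PCR cycles and sequenced paired-end at 100 bases, as the labels' protocols state.

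Total counts of all features were tested with edgeR 4.0.16 in R 4.3.3 (filterByExpr, TMM, quasi-likelihood, two-sided, Benjamini-Hochberg, threshold 0.05). Ler and Col counts were tested likewise with library terms, the allele, and its interaction with genotype, for features with a mean of at least 20 allele counts, without listed genes. Both fits were tested on simulated data. DESeq2 1.42.0 was an alternative. Sums and shares were compared with exact permutation tests over libraries (scipy 1.17.1). CPM divide by library totals without TMM factors. Wilson intervals at the 95% level and floors of 3 counts cover counting error only, because the reads carry no molecular identifiers. The labels call replicates separate samples and say nothing of separate plants, so p-values measure only the spread between these samples, which may be technical. The elements, gene lists and tests were chosen with earlier results of these data known. Elements are named by rule: every call, the 10 smallest p, the 10 highest levels, the 10 with most allele counts, and the 5 with most counts among those at 0 in 1 genotype. AT5TE49345, AT1TE84620 and those of the closing section were named after their values were seen. Positions and sequences of elements were not used here. No RefSeq entry carries an element identifier.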

Additional observations from a re-analysis of the deposited data

How the results depend on the processing

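The summed level stayed higher in homozygous nrpd1 under all alternatives run: by 35.7 CPM on chromosomes 3 to 5, 37.2 without the 10 most abundant elements, 79.1 after TMM scaling, 54.0 without chromosome 1 elements numbered 60000 or more (chosen after seeing the data), and 56.2 to 82.9 with 1 library left out. The number of detected elements differed by 26.5 to 137.5 with 1 library left out, lowest without homozygous replicate 3. The pooled maternal share differed by -6.89 to -2.40 points with 1 library left out, but by 0.18 points on chromosomes 3 to 5 and 0.39 without the elements numbered 60000 or more. Elements minus genes ran from -10.7 to -8.55 points with 1 library left out, and were -5.22 without the elements numbered 60000 or more and -5.50 on chromosomes 3 to 5. In edgeR 0 elements passed in total expression without any 1 library, with 23 to 31 at an unadjusted p under 0.05, and 1 passed without the stretch of chromosome 1. DESeq2 called 13. In maternal share 0 to 1 passed with 1 library left out (0 to 3 at an unadjusted p under 0.05), and 0 without that stretch, where edgeR had 0 at an unadjusted p under 0.05. With 1 wild-type library left, it was assumed to vary like the others.

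Replicate numbers 1 and 2 occur in both groups, but nothing says that they pair the libraries. Deviations of same-numbered libraries correlated at 0.16 and 0.30, and wild-type replicate 1 correlated best with homozygous replicate 3 (0.23). The deviations of 2 wild-type libraries are mirror images, so each value recurs with the opposite sign for the other wild-type library. These correlations therefore cannot decide whether the libraries pair. With the replicate number as a block, 2 elements passed, 0 higher and 2 lower, and the summed level differed by 56.2 CPM between same-numbered libraries. No block could be added to the maternal share fit, which has a term per library. For single elements, 12 of 25 alternative values kept a call and 13 lost it, 8 of 77 gained a call that the reported fit did not make, and 0 turned sign. At this depth 94.0% of elements gave no count.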

Other observations

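Some abundant elements have neighbours in identifier number. Of the 70 elements with at least 100 counts, 13 have another of the 70 within 25 numbers, in 8 pairs. AT1TE46310, AT1TE46325 and AT1TE46330 form 1 such run, and AT1TE46310 held 140 and 143 counts in wild type against 135, 75 and 132 in the mutant. AT2TE33385 held 36 and 50 counts against 48, 74 and 90, and its neighbour AT2TE33390 168 and 262 against 180, 327 and 370. Among elements at 0 in wild type, AT4TE44405 and AT4TE44410, named after their values were seen, had 5, 4 and 5 counts and 4, 4 and 5 counts in the mutant. Whether such neighbours share a transcript was not tested.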
